A study of Homo sapiens with 4 samples.

Results

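The genes described here are 35 genes of the actin cytoskeleton and of the contractile programme driven by serum response factor (SRF). They were chosen by symbol from known function, with earlier results of these data known, and each of the 35 was found once among the 17791 gene symbols of the counts table. All 35 passed the filter on low values, which kept 14851 genes at 1 CPM or more in at least 1 library (CPM, counts scaled to a library of 1000000). The set holds 4 actins, 2 transgelins, 3 calponins, 4 tropomyosins, 4 myosin light chains, 2 non-muscle myosin heavy chains, caldesmon, 3 cross-linkers, 3 adhesion plaque genes, 4 LIM-domain genes, 3 genes of actin monomer turnover, SRF itself and leiomodin 1.

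Bulk RNA sequencing was performed on engineered prostate cancer tissues (EPCaTs) and on cells grown flat. Each EPCaT held PC-3 cells, an epithelial line from a bone metastasis of prostate cancer, and BJ-5ta cells, a telomerase-immortalised foreskin fibroblast line, seeded at 5 PC-3 cells to 1 BJ-5ta cell in poly(ethylene glycol)-fibrinogen (PF) hydrogel. The 4 libraries were a PF EPCaT, a PF+2%PEGDA EPCaT and a PF+3%PEGDA EPCaT at day 15 (the gels with PEGDA are written as 2% PEGDA and 3% PEGDA EPCaT hereafter), and a 2D coculture of the same lines. PEGDA is poly(ethylene glycol) diacrylate, added in excess (2 or 3% w/v) to tune the mechanical properties of the gel. RNA came from more than 2 EPCaTs per gel, sequenced as 1 library, or from cells grown in 2D. No group received a drug, and the day, cell ratio and medium of the 2D coculture are not given in the sources used here.

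Actin filaments are built from actin monomers, stiffened by tropomyosins, cross-linked by actinins and filamins, anchored to integrin adhesions through talin and vinculin, and pulled on by myosin II. When monomeric actin is used up in filaments, the cofactors MRTFA and MRTFB, which bind free monomers, move to the nucleus and act with SRF on promoters that carry CArG boxes. SRF targets include many cytoskeletal genes, and in fibroblasts ACTA2, TAGLN and CNN1 are common markers of the myofibroblast state.

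Each group was a single library, so no test between groups could be made and no p-value is given. Values are levels in CPM after scaling by the trimmed mean of M-values (TMM), and gene positions are those of GRCh38 in GENCODE 29. A gene is called higher or lower when its level differed at least 2-fold and the exact 95% interval of the ratio excluded equality. Those intervals cover counting error only, because reads without molecular identifiers are not independent molecules and culture-to-culture variation was not measured. Total counts ranged from 13760317 in the 3% PEGDA EPCaT to 15687912 in the PF EPCaT. The 35 genes together took 1.68, 1.85 and 1.86% of the counts in the PF, 2% and 3% PEGDA EPCaTs, against 1.76% in the 2D coculture, so the set as a whole held a similar share of each library while its members moved apart.

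SRF, the transcription factor that gives the programme its name, measured 57.2, 44.3 and 44.3 CPM in the PF, 2% and 3% PEGDA EPCaTs, against 82.4 CPM in the 2D coculture. Its log2 ratio over 2D was -0.53, -0.89 and -0.89, short of the 2-fold rule in each gel. Promoters from 250 bases before to 50 bases after the start were taken from RefSeq (GRCh38.p14) for 32 of the 35 genes, all but ACTB, TAGLN and MYL9. They were searched on both strands for the strict CArG box, CC then 6 bases of A or T then GG. A match was found for 8 of these 32 genes (25%), against 438 of the 27305 genes with a promoter in the table (1.6%). By promoter the counts were 10 of 56 (17.9%) for the set and 454 of 35116 (1.29%) for all. The set was chosen in part for its known link to SRF, so the share is no independent sign of that link, and a match is a description of the letters rather than of binding.

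The promoters printed here, 5′ to 3′ with each CArG box in capitals, are those of SRF itself, of ACTG2 and FHL2, which have boxes and were called lower than 2D in both EPCaTs with PEGDA, and of ACTG1, an abundant actin that was not called.
SRF at chr6:43171019-43171318, plus strand: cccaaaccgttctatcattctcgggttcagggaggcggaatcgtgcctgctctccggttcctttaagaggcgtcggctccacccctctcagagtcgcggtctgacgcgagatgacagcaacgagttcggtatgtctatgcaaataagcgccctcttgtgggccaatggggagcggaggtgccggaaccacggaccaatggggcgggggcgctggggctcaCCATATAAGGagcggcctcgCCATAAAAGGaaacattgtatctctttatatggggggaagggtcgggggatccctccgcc
ACTG2 at chr2:73892758-73893057, plus strand: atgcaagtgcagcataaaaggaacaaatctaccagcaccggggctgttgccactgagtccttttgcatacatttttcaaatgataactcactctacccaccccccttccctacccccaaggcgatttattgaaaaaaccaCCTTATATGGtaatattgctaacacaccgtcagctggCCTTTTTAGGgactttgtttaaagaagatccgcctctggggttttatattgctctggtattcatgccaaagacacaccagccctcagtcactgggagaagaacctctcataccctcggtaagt
FHL2 at chr2:105438464-105438763, minus strand: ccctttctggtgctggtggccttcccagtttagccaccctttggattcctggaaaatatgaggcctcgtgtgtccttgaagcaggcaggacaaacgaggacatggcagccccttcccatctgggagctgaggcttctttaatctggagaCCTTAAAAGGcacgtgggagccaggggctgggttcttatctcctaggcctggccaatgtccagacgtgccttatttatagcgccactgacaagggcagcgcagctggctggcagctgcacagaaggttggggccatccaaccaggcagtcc
FHL2 at chr2:105399002-105399301, minus strand: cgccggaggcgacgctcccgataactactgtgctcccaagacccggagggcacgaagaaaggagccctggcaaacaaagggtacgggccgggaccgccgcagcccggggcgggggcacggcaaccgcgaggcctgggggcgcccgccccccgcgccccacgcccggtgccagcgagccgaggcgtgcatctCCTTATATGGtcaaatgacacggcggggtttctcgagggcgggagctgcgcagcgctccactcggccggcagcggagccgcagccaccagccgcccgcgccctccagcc
ACTG1 at chr17:81512750-81513049, minus strand: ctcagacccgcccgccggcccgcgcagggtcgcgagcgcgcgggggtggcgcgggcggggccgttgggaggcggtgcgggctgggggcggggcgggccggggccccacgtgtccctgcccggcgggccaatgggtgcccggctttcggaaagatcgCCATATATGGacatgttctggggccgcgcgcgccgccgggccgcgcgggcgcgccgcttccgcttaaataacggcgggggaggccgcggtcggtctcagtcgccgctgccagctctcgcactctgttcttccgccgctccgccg
SRF and ACTG2 each carried 2 boxes, beginning 30 and 10 bases before the start in SRF and 110 and 73 bases before it in ACTG2. FHL2 carried a different box in each of its promoters printed, 101 and 59 bases upstream, and ACTG1 carried CCATATATGG 94 bases upstream. The first FHL2 box also lay 85 bases upstream of a nearby start, and not all of the 4 FHL2 promoters had a box. The other members with a box were CNN2 (CCTTATAAGG, 89 bases upstream), FLNA (CCAATTAAGG, 94 bases), ACTN1 (CCAAAAATGG, 171 bases) and TPM4 (CCAAATAAGG, 173 bases). Of these 8 genes, FHL2 was called lower than 2D in every EPCaT, ACTG2 in the 2% and 3% PEGDA EPCaTs and ACTN1 in the 3% PEGDA EPCaT alone, while SRF, ACTG1, CNN2, TPM4 and FLNA were not called in any. Among the other members called lower in every EPCaT, ACTA2, CNN1, TPM1 and TPM2 had no match, and TAGLN and MYL9 had no promoter to search. Boxes that depart from the strict pattern or lie outside these promoters were not searched for.

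Set against the 2D coculture, more members were called lower than higher in each EPCaT. In the PF EPCaT 8 of the 35 genes were lower and 2 higher, against a background of 12% lower and 16.5% higher among all 14851 genes tested. The 2% PEGDA EPCaT had 9 lower and 2 higher (background 9.45% and 12.4%), and the 3% PEGDA EPCaT had 11 lower and 1 higher (background 10.4% and 12.1%). The median log2 ratio of the set was -0.46, -0.40 and -0.44 in the PF, 2% and 3% PEGDA EPCaTs, beside 0.02, 0.01 and 0.00 over all genes tested. Called lower in all 3 EPCaTs were 7 members, ACTA2, TAGLN, CNN1, TPM1, TPM2, MYL9 and FHL2, where the background was 6.07%. Only TAGLN2 was called higher in all 3, where the background was 7.86%. The 3 ratios share the 2D library, so that library's own deviation enters each of them. The members were chosen with earlier results of these data known, so their shares beside the background are a description and not an unbiased comparison.

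The same direction was seen for markers of the fibroblast line. Fibroblast marker genes, 24 of 24 with a row, summed to 3585, 4286 and 3667 CPM in the PF, 2% and 3% PEGDA EPCaTs, against 10790 CPM in the 2D coculture. Of the 23 that passed the filter, 14 were below 2D by the call rule in every EPCaT and 0 above it in every EPCaT (background 6.07% and 7.86%). The median log2 ratios were -1.69, -1.67 and -1.46. Gel by gel, 16, 14 and 14 were called lower in the PF, 2% and 3% PEGDA EPCaTs. Called higher were COL5A2 in the PF EPCaT, S100A4 in the 2% PEGDA EPCaT, and LOX and S100A4 in the 3% PEGDA EPCaT. COL1A1, a chain of type I collagen, measured 307, 365 and 246 CPM in the EPCaTs, against 1742 CPM in 2D. POSTN, a matricellular protein of fibroblasts, was at 0 in the 2% and 3% PEGDA EPCaTs. It was the marker that failed the filter, under 1 CPM in 2D as well, so those zeros show no difference. CTNNA1, the alpha-catenin gene that PC-3 cells have lost, measured 5.40, 6.18 and 8.29 CPM in those 3 gels, against 33.1 CPM in 2D. Epithelial markers (18 genes) summed to 8321, 9317 and 9098 CPM in the EPCaTs, against 5925 CPM in 2D. In bulk RNA, fewer cells of a type and less RNA per cell cannot be told apart, and the part of the fibroblast marker levels in the lower members was not tested.

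**Figure D1:**
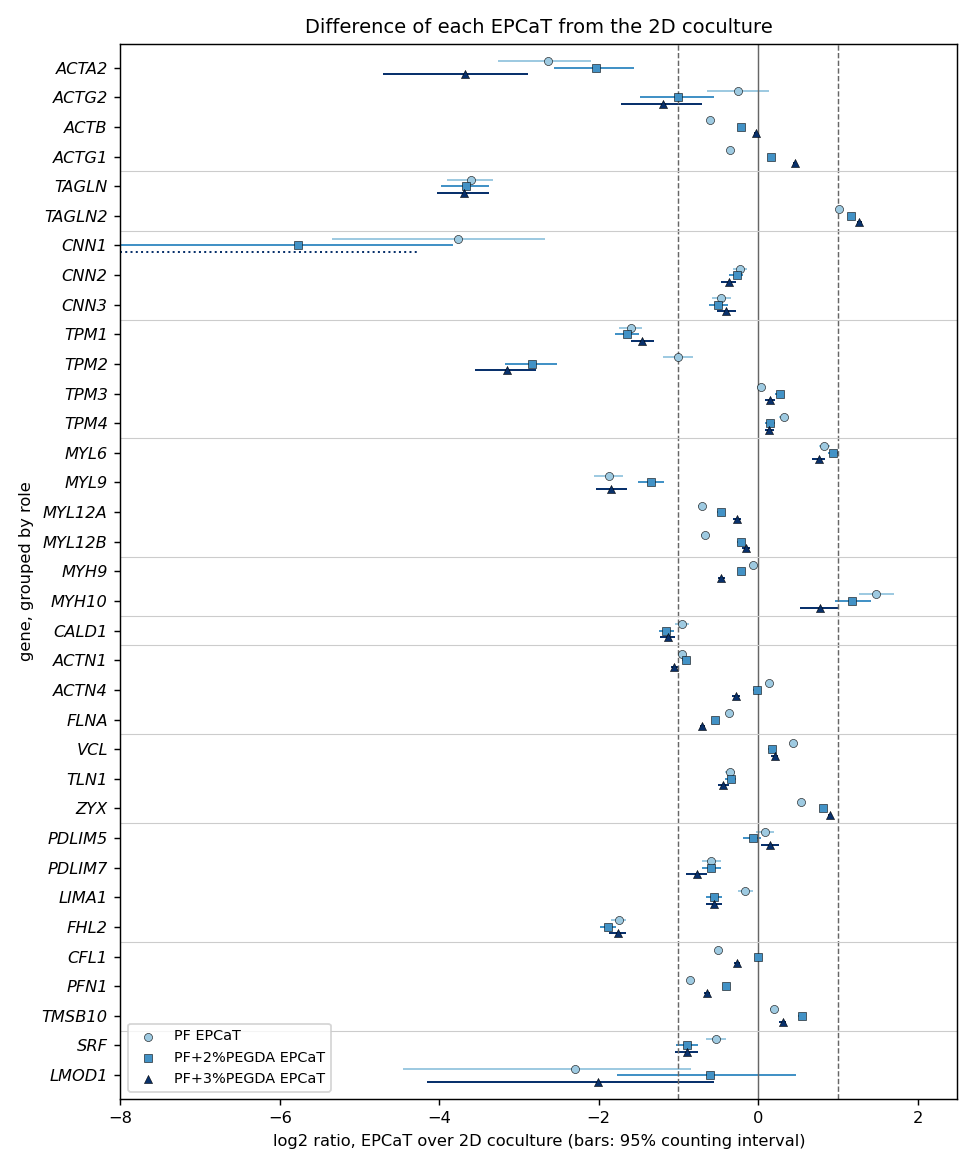
Log2 ratio of each EPCaT over the 2D coculture for the 35 genes, grouped by role, with exact 95% intervals of counting error as bars and the 2-fold rule as dashed lines. A dotted bar alone marks CNN1 at 0 counts. TAGLN and CNN1 lie far to the lower side in every gel, and TAGLN2 and MYH10 are the members called higher.

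Among the actins, the smooth muscle forms were low everywhere and the cytoplasmic forms abundant everywhere. ACTA2, alpha smooth muscle actin (chr10:88935074-88991339, minus strand), measured 1.86, 2.83 and 0.880 CPM in the PF, 2% and 3% PEGDA EPCaTs, against 11.7 CPM in the 2D coculture. These levels rest on 31, 44 and 12 counts in the EPCaTs, against 172 in 2D, and every EPCaT was called lower, by 6.22-, 4.10- and 12.8-fold. Of the 50-base stretches of ACTA2, 13.2% also lie in ACTA2-AS1 and 11.1% in FAS, and the library kit does not mark strand, so reads from these overlaps cannot be told apart. The antisense ACTA2-AS1 gave 0, 0 and 1 counts in the EPCaTs, against 8 in 2D, and FAS gave 34, 15 and 18 in the EPCaTs, against 28 in 2D.

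ACTG2, the gamma actin of enteric smooth muscle, measured 6.66, 3.93 and 3.45 CPM in the PF, 2% and 3% PEGDA EPCaTs, against 7.90 CPM in 2D. The PF EPCaT was near the 2D level (log2 ratio -0.25), and the others were called lower, by just past 2-fold with 2% PEGDA and by 2.28-fold with 3% PEGDA. The 2% PEGDA call was lost with scaling by total counts (log2 -0.89). ACTB, the cytoplasmic beta actin, measured 2985, 3898 and 4437 CPM in the 3 EPCaTs, against 4536 CPM in 2D. ACTG1, its gamma partner, measured 1453, 2074 and 2546 CPM in the 3 EPCaTs, against 1853 CPM in 2D. Neither cytoplasmic actin was called, ACTB lying below 2D in each gel (though at log2 0.05 above it in the 3% PEGDA EPCaT with scaling by total counts) and ACTG1 below it in the PF EPCaT and above it in the gels with PEGDA.

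Within the actin family, shares do not depend on how libraries are scaled. ACTA2 took 0.0418, 0.0474 and 0.0126% of the actin counts in the PF, 2% and 3% PEGDA EPCaTs, against 0.183% in the 2D coculture. ACTG1 took 32.7, 34.7 and 36.4% in the EPCaTs, against 28.9% in 2D. The balance of the cytoplasmic actins therefore stood further towards ACTG1 in each gel than in 2D, while the smooth muscle actins stayed under 1% of the family in every library.

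The transgelins split in opposite directions. TAGLN, an actin-binding protein and long-used marker of smooth muscle and myofibroblasts (chr11:117199321-117204782), measured 6.78, 6.51 and 6.38 CPM in the PF, 2% and 3% PEGDA EPCaTs, against 82.8 CPM in the 2D coculture. It was 12.2-, 12.7- and 12.9-fold lower, nearly the same drop in every gel. TAGLN2, its more widely expressed paralogue (chr1:159918107-159925732), measured 1405, 1575 and 1682 CPM in the 3 EPCaTs, against 697.7 CPM in 2D. It was called higher by 2.01-, 2.26- and 2.41-fold, so that TAGLN made up 0.480, 0.411 and 0.378% of transgelin counts in the EPCaTs, against 10.6% in 2D. A stretch of TAGLN is shared with PCSK7 (9.63% of its 50-base stretches), which lies beside it and measured 83.1, 46.4 and 46.2 CPM in the EPCaTs, against 29.3 CPM in 2D.

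CNN1, basic calponin, which binds actin and restrains actomyosin in smooth muscle, was among the scarcest members of the set. It had 6, 1 and 0 counts in the PF, 2% and 3% PEGDA EPCaTs, against 77 counts in the 2D coculture. In the PF EPCaT it was 13.5-fold lower. The single count in the 2% PEGDA EPCaT gives a ratio of 0.0183 over 2D, with a counting interval from 0.000307 to 0.0705. In the 3% PEGDA EPCaT the interval of its ratio over 2D reached up to 0.0529. Taking 3 counts as the most that a count of 0 allows gave 23.8-fold lower, a bound that leaves out the counting error of the 2D library. CNN2 and CNN3, the calponins of non-muscle cells, were not called in any gel. CNN2 measured 135, 131 and 122 CPM in the 3 EPCaTs, against 158.5 CPM in 2D, and held 67.2, 67.2 and 64.1% of calponin counts in the EPCaTs, against 62.4% in 2D.

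Tropomyosins lie along the actin groove and set which other proteins can bind. TPM1 and TPM2 are the forms most used in muscle and in stress fibres, and TPM3 and TPM4 are widespread. TPM1 (chr15:63042632-63071915) measured 35.3, 34.2 and 38.96 CPM in the PF, 2% and 3% PEGDA EPCaTs, against 107 CPM in the 2D coculture. It was called 3.02-, 3.12- and 2.74-fold lower, with little difference between gels. Of the 50-base stretches of TPM1, 20% also lie in other genes, with 14.2% in TPM1-AS. TPM1-AS gave 12, 12 and 3 counts in the EPCaTs, against 3 in 2D. TPM2 (chr9:35681992-35690121), beta tropomyosin, measured 21.1, 5.93 and 4.77 CPM in the EPCaTs, against 42.5 CPM in 2D. Here the gels differed, with a level 2.01-fold lower than 2D in the PF EPCaT, 7.14-fold lower in the 2% PEGDA EPCaT and 8.85-fold lower in the 3% PEGDA EPCaT. The PF EPCaT's call was lost with scaling by total counts (log2 -0.83). None of the 50-base stretches of TPM2 lies in another gene. TPM3 measured 319.9, 375 and 346 CPM in the 3 EPCaTs against 312 CPM in 2D, and TPM4 measured 336, 298 and 297 CPM against 269 CPM in 2D, with no call for either.

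By share of tropomyosin counts, TPM1 held 4.96, 4.79 and 5.67% in the PF, 2% and 3% PEGDA EPCaTs, against 14.6% in the 2D coculture. TPM2 held 2.96, 0.830 and 0.695% in the EPCaTs, against 5.82% in 2D. The exact 95% interval of the PF value, 2.67 to 3.29%, does not meet those of the 2% PEGDA EPCaT, 0.670 to 1.02%, or of the 3% PEGDA EPCaT, 0.536 to 0.884%. TPM3 and TPM4 together filled the rest, at 44.9 and 47.2% in the PF EPCaT, 52.6 and 41.8% with 2% PEGDA, 50.4 and 43.2% with 3% PEGDA, and 42.7 and 36.9% in 2D. The same order of TPM2 held per length, at 7.06, 2.08 and 1.74% of the family's CPM per kb in the EPCaTs, against 14.2% in 2D.

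**Figure D2:**
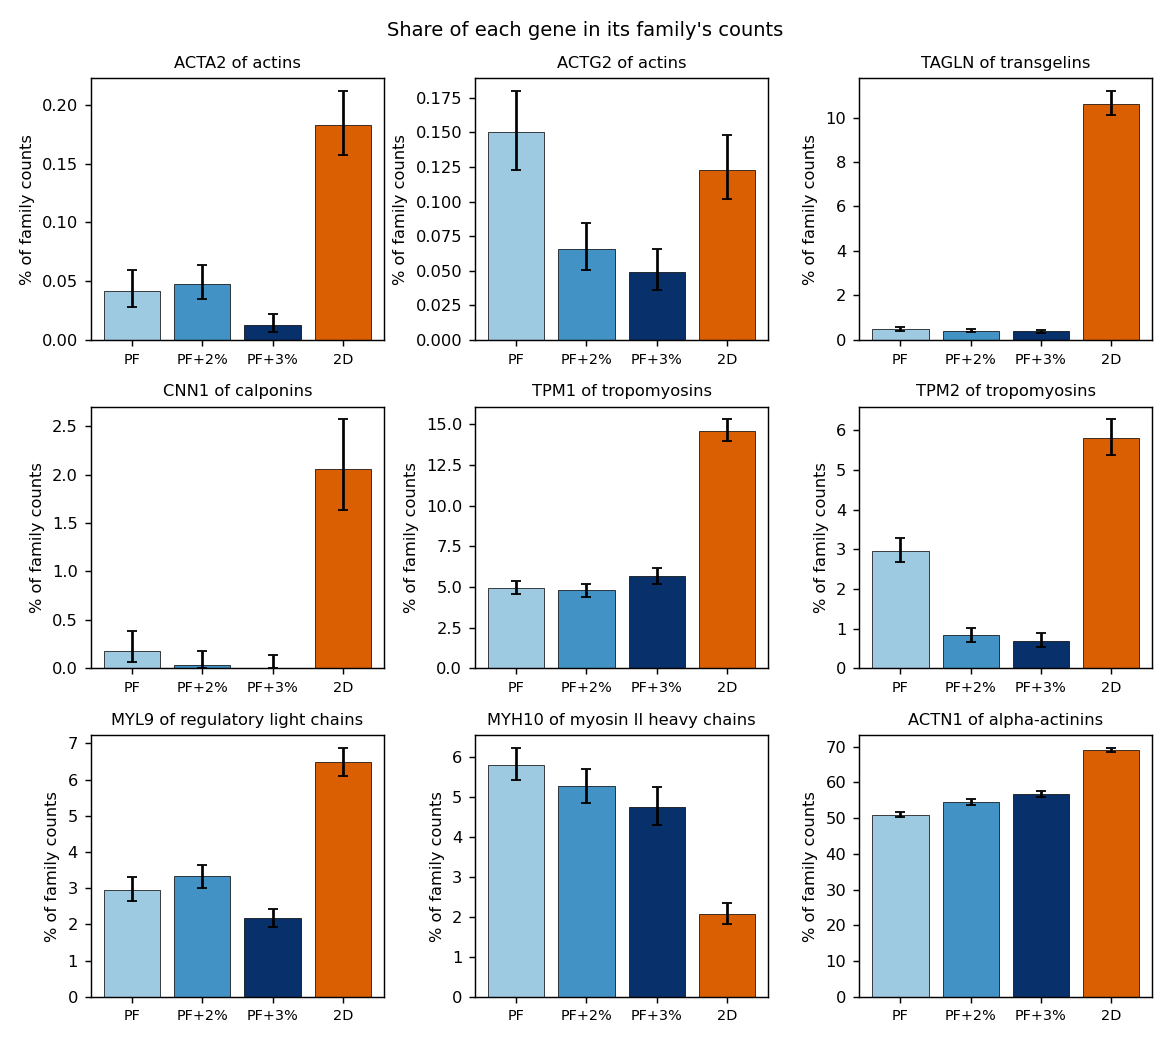
Share of its family's counts, in percent, held by each of 9 members in the PF, 2% and 3% PEGDA EPCaTs and the 2D coculture, with exact 95% binomial intervals as error bars and axes that differ between panels. TAGLN, TPM1 and ACTN1 held smaller shares in each EPCaT than in the 2D coculture and MYH10 a larger one, and TPM2 stood higher in the PF EPCaT than in the gels with PEGDA.

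Myosin II is built of heavy chains, essential light chains and regulatory light chains. MYL9, a regulatory light chain of smooth muscle and non-muscle myosin (chr20:36541484-36551447), measured 19.3, 27.9 and 19.7 CPM in the PF, 2% and 3% PEGDA EPCaTs, against 70.6 CPM in the 2D coculture. It was called 3.65-, 2.53- and 3.59-fold lower. MYL12A and MYL12B, the non-muscle regulatory chains, were far more abundant and were not called. MYL12B measured 348, 474 and 499.8 CPM in the 3 EPCaTs, against 554 CPM in 2D, so that MYL9 made up 2.96, 3.33 and 2.17% of regulatory light chain counts in the EPCaTs and 6.48% in 2D. MYL6, the essential light chain, measured 276, 298 and 263 CPM in the EPCaTs, against 155 CPM in 2D, at log2 ratios of 0.83, 0.94 and 0.76 that stayed inside the 2-fold rule, though with scaling by total counts it was called in the PF and 2% PEGDA EPCaTs (1.01 and 1.05).

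The heavy chain MYH9, of non-muscle myosin IIA, measured 731, 658 and 552 CPM in the PF, 2% and 3% PEGDA EPCaTs, against 762 CPM in 2D, with no call. MYH10, of non-muscle myosin IIB (chr17:8474205-8630761), measured 45.1, 36.6 and 27.5 CPM in the 3 EPCaTs, against 16.1 CPM in 2D. It was called 2.79- and 2.26-fold higher in the PF and 2% PEGDA EPCaTs, and at 1.70-fold was not called in the 3% PEGDA EPCaT. Its share of the counts of both heavy chains was 5.80, 5.26 and 4.75% in the EPCaTs, against 2.07% in 2D. CALD1, caldesmon, which binds actin, myosin and tropomyosin, measured 100.1, 87.2 and 88.4 CPM in the EPCaTs, against 194 CPM in 2D. Its log2 ratio was -0.96 in the PF EPCaT, and -1.15 and -1.13 in the 2% and 3% PEGDA EPCaTs, where it was called lower.

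Cross-linkers and adhesion genes were mostly not called. ACTN1, the alpha-actinin of stress fibres and adhesions, measured 543.5, 565 and 511 CPM in the PF, 2% and 3% PEGDA EPCaTs, against 1060 CPM in the 2D coculture. The log2 ratios lay at -0.96, -0.91 and -1.05, with a call in the 3% PEGDA EPCaT alone that was lost with scaling by total counts (-0.97). ACTN4, the other non-muscle actinin, measured 524, 471 and 390.5 CPM in the EPCaTs, against 475 CPM in 2D, so ACTN1 made up 50.9, 54.5 and 56.7% of the counts of both in the EPCaTs and 69.1% in 2D. FLNA, filamin A, measured 1322, 1168 and 1045 CPM in the 3 EPCaTs, against 1703 CPM in 2D, without a call. Adhesion plaques were represented by VCL (vinculin), TLN1 (talin, which activates integrins) and ZYX (zyxin, which gathers where filaments are under tension), and none was called. ZYX measured 1610, 1943 and 2065 CPM in the EPCaTs, against 1110 CPM in 2D, and lay above 2D in each gel.

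FHL2, a LIM-domain adaptor and SRF target (chr2:105357712-105438513), measured 68.04, 62.3 and 67.7 CPM in the PF, 2% and 3% PEGDA EPCaTs, against 229.6 CPM in the 2D coculture. It was called 3.37-, 3.68- and 3.39-fold lower, the only LIM-domain member with a call. PDLIM5, PDLIM7 and LIMA1, LIM-domain proteins that bind actinin or filaments, measured between 55.6 and 117 CPM in the EPCaTs and between 82.6 and 131 CPM in 2D. The turnover genes CFL1 (cofilin, which severs filaments), PFN1 (profilin, which feeds monomers to growing ends) and TMSB10 (a thymosin that holds monomers) were also not called. PFN1, the lowest of the 3 relative to 2D, measured 511.5, 703 and 595 CPM in the EPCaTs, against 925 CPM in 2D. LMOD1, the leiomodin of smooth muscle that starts filaments, had 4, 13 and 4 counts in the PF, 2% and 3% PEGDA EPCaTs, against 19 counts in 2D, and was called lower in the PF and 3% PEGDA EPCaTs on those few counts.

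In all, 13 of the 35 genes were called in at least 1 EPCaT against 2D, and 0 were called in opposite directions in different gels. Of all 14851 genes tested, 36.8% were called in at least 1 EPCaT in either direction, so the set's share was close to the background. Of the 22 genes with no call, 12 lay below 2D in all 3 EPCaTs, 6 lay above it in all 3, and ACTG1, ACTN4, PDLIM5 and CFL1 lay on both sides. With scaling by total counts, values close to equality crossed to above 2D for MYH9 and LIMA1 in the PF EPCaT, ACTN4 and PDLIM5 in the 2% PEGDA EPCaT and ACTB in the 3% PEGDA EPCaT. Per kilobase of exon, the level of ACTB ranked highest and that of TMSB10 next in each of the 4 libraries. ACTB measured 1499, 1958 and 2228 CPM per kb in the PF, 2% and 3% PEGDA EPCaTs, against 2279 CPM per kb in 2D, and TAGLN2 ranked 3, 4 and 4 of 35 in the EPCaTs and 7 in 2D.

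**Figure D3:**
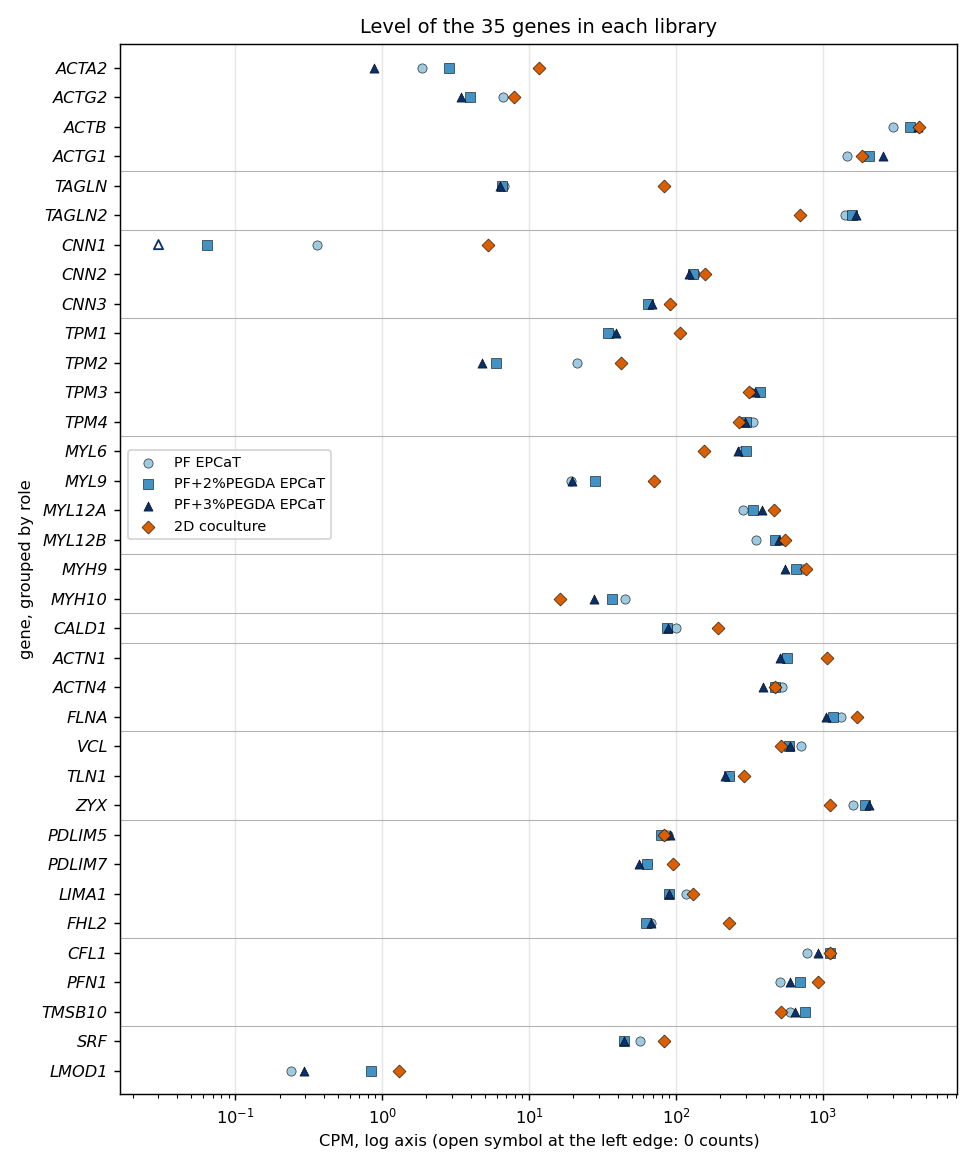
Level of each of the 35 genes (rows, grouped by role) in the 4 libraries, in CPM on a log axis and not corrected for length, with an open symbol at the left edge for a count of 0. TAGLN, CNN1, TPM1 and FHL2 show the 2D coculture well to the right of the 3 EPCaTs, and TAGLN2 shows it to the left, at 697.7 CPM.

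The labelled lines are not muscle, and markers of differentiated smooth muscle were sparse. Of 12 such markers, with CNN1, LMOD1 and ACTG2 of the set among them, 9 had a row and 8 passed the filter, with 3 lower in all 3 EPCaTs than in 2D (MYOCD, SYNPO2 and CNN1) and 0 higher. Their summed level was 152, 113 and 114 CPM in the PF, 2% and 3% PEGDA EPCaTs, against 136 CPM in 2D. MYH11, the smooth muscle myosin heavy chain, gave 1, 4 and 0 counts in the EPCaTs, against 0 in 2D. MYOCD, myocardin, the muscle-restricted SRF cofactor, had 0 counts in each EPCaT and 22 in 2D. Of 15 striated muscle markers 6 had a row and 4 passed the filter, and TTN and TNNC1 were higher in all 3 EPCaTs (background 7.86%). TNNT1, the most abundant of them, lay below 2D in each gel without a call (log2 -0.75, -0.39 and -0.59), and the list summed to 93.1, 96.6 and 85.5 CPM in the EPCaTs, against 106 CPM in 2D. The skeletal actin ACTA1 gave 4, 0 and 0 counts in the EPCaTs, against 4 in 2D. Of 10 endothelial and blood markers 7 had a row and 5 passed the filter, and PECAM1, KDR, ESAM and LYZ were higher in all 3 EPCaTs (background 7.86%). The summed level of that list was 312, 361 and 426 CPM in the EPCaTs, against 157 CPM in 2D. CD68, the other gene of that list to pass, was lower in the PF and 2% PEGDA EPCaTs (log2 -1.15 and -1.10) and was not called in the 3% PEGDA EPCaT (-0.83).

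The question put by the gels themselves was how the genes changed as PEGDA was added. Few members were called. In the 2% PEGDA EPCaT over the PF EPCaT, 1 member was lower (TPM2) and 1 higher (LMOD1), against a background of 5.56% lower and 2.98% higher. In the 3% PEGDA EPCaT over the PF EPCaT, 2 were lower (ACTA2 and TPM2) and 0 higher (background 7.49% and 3.63%). In the 3% PEGDA EPCaT over the 2% PEGDA EPCaT, 1 was lower (ACTA2) and 0 higher (background 2.39% and 1.87%). The set's median log2 ratios for these pairs were -0.04, -0.08 and -0.10 (-0.09 for the last with CNN1 at its bound), beside 0.00 over all genes tested in each pair. The medians of the 23 fibroblast markers were 0.20, 0.01 and -0.21 for the same pairs. Among those markers COL1A2 and COL5A2 were lower and LOX higher in the 3% PEGDA EPCaT over the PF EPCaT, at log2 -1.29, -1.53 and 1.40, and their part in the differences between gels was not tested.

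TPM2 gave the largest called difference between gels within the set. It had 92 counts in the 2% PEGDA EPCaT and 65 in the 3% PEGDA EPCaT, against 352 in the PF EPCaT. The log2 ratio over the PF EPCaT was -1.83 with 2% PEGDA (95% interval -2.18 to -1.50) and -2.14 with 3% PEGDA (-2.55 to -1.76), and between the gels with PEGDA it was not called. ACTA2 did not follow that order. Its log2 ratio was 0.60 in the 2% PEGDA EPCaT over the PF EPCaT (-0.09 to 1.32), -1.04 in the 3% PEGDA EPCaT over the PF EPCaT (-2.18 to -0.08) and -1.64 in the 3% PEGDA EPCaT over the 2% PEGDA EPCaT (-2.74 to -0.74), from 12 to 44 counts a gel. The call of the 3% PEGDA EPCaT over the PF EPCaT was lost with a prior of 2 counts (-0.95). LMOD1 was called on 13 counts against 4, with an interval of the fold from 1.08 to 14.7. ACTG2 lay at -0.76 with 2% PEGDA and -0.94 with 3% PEGDA over the PF EPCaT, short of the 2-fold rule except with scaling by total counts in the 3% PEGDA EPCaT (-1.04). TAGLN differed by -0.09 on the log2 scale between the 3% PEGDA and PF EPCaTs.

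No member was called in order across the gels (both steps the same way with intervals excluding equality, and 2-fold in all), where the background was 0.929% higher, 2.23% lower and 3.16% in either direction. With the 2-fold demand dropped, a view added after the values were seen, 6 abundant members were higher at both steps (ACTB, ACTG1, TAGLN2, MYL12A, MYL12B and ZYX; background 7.97%) and 4 lower at both (MYH9, MYH10, ACTN4 and FLNA; background 6.63%), or 5 and 5 with scaling by total counts. Apart from MYH10, at 45.1, 36.6 and 27.5 CPM in the PF, 2% and 3% PEGDA EPCaTs, these genes were abundant. Counting intervals are narrow for abundant genes, so small steps can pass. ACTG1 moved furthest upward, by 0.81 on the log2 scale in the 3% PEGDA EPCaT over the PF EPCaT, followed by ACTB at 0.57, MYL12B at 0.52 and MYL12A at 0.45. MYH10 moved furthest downward at -0.71, with ACTN4 at -0.42, MYH9 at -0.41 and FLNA at -0.34.

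**Figure D4:**
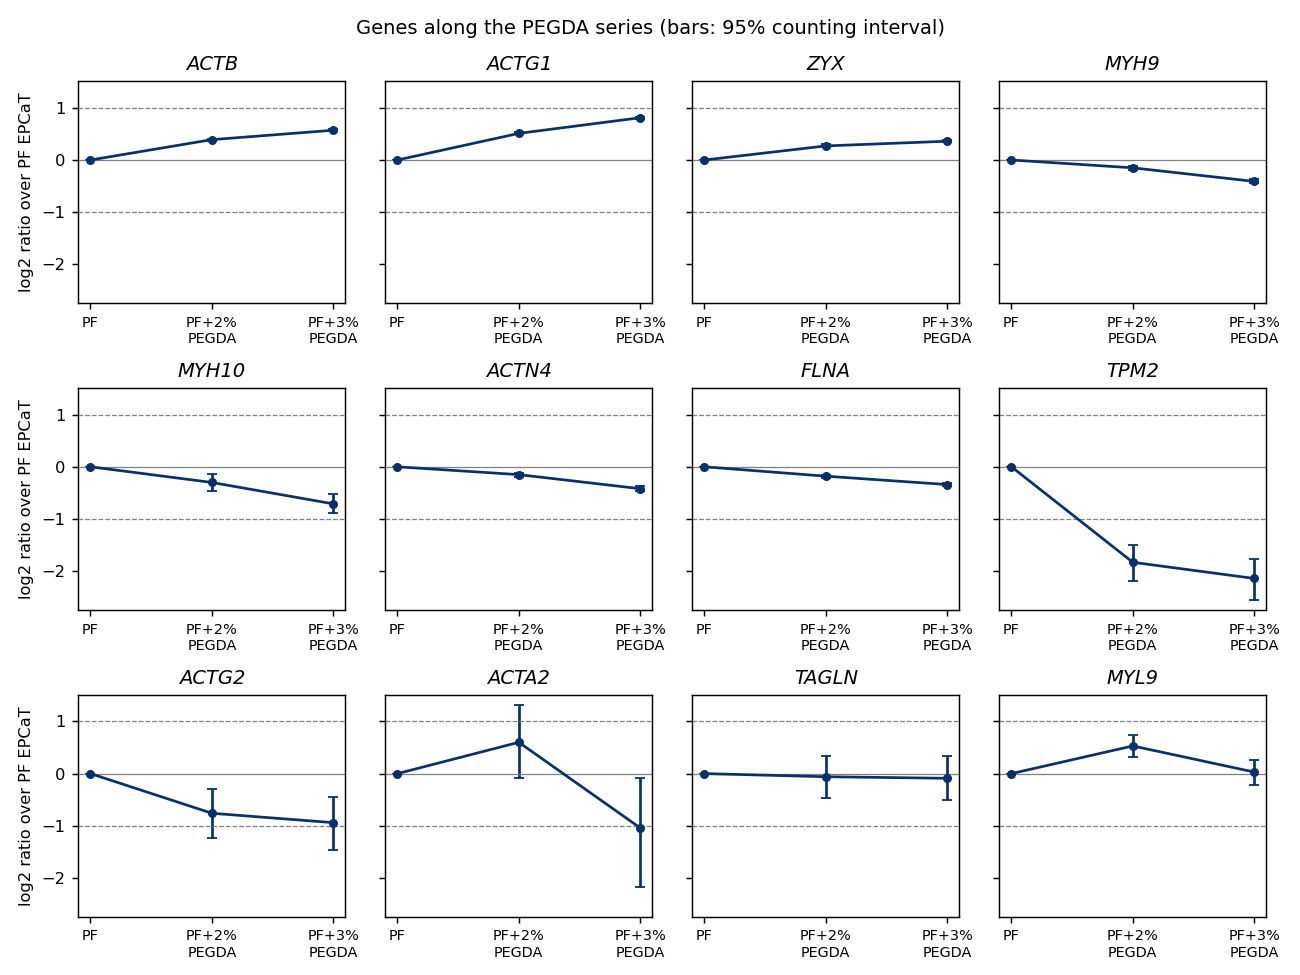
Log2 ratio over the PF EPCaT (the point at 0) for 12 members in the PF, 2% and 3% PEGDA EPCaTs, with 95% intervals of counting error as bars and the 2-fold rule as dashed lines. TPM2 lies below the lower line in both gels with PEGDA, ACTA2 crosses it with 3% PEGDA alone, and TAGLN stays close to 0.

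Other genes of the pathway were read from lists of related function, each against 2D. Among all genes tested, 6.07% were called lower in all 3 EPCaTs and 7.86% higher, so 1 gene of 17 lies near these shares. Of 17 genes of the Arp2/3 complex, which branches filaments, and of regulators of branched actin, 1 was called lower in each EPCaT (ARPC1B) and 0 higher. ARPC1B, a subunit of the complex chosen for mention after its values were seen, measured 129.8, 156 and 152 CPM in the PF, 2% and 3% PEGDA EPCaTs, against 340 CPM in 2D. ACTR2, the most abundant of that list, measured 333, 343 and 369 CPM in the EPCaTs, against 338 CPM in 2D. Of 14 formins and elongators, 1 was lower in all 3 (DAAM2) and 2 higher (DIAPH3 and DAAM1). DIAPH3, a formin of the cell cortex, measured 12.8, 8.44 and 5.50 CPM in the 3 EPCaTs, against 2.45 CPM in 2D, and was called lower in order with PEGDA.

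Of 18 monomer-binding, severing and capping genes, 0 were called lower in each EPCaT and 2 were called higher, the villin VIL1 and the gelsolin relative SCIN. VIL1, which bundles filaments in epithelial brush borders, had 21, 16 and 6 counts in the PF, 2% and 3% PEGDA EPCaTs, against 0 in the 2D coculture. Of 17 other cross-linkers and membrane linkers, 0 were lower in all 3 and 1 was higher, ANLN, the anillin of the cytokinetic ring. ANLN measured 90.3, 59.1 and 29.7 CPM in the EPCaTs, against 13.1 CPM in 2D, and was lower in order with PEGDA. Of 13 other myosins, 0 were called in either direction in all 3 gels.

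Among these pathway lists, the most genes called lower in each EPCaT were on those of LIM and adhesion genes and of SRF cofactors and targets. Both were also the longest of the lists described, and the background was 6.07% lower and 7.86% higher. Of 21 other LIM and adhesion plaque genes, 5 were called lower in each EPCaT (LIMS2, PXN, TGFB1I1, FHL1 and FHL3) and 1 higher (CSRP2), with median log2 ratios of -0.54, -0.57 and -0.59. PXN, the adhesion scaffold paxillin, measured 656, 569 and 533 CPM in the PF, 2% and 3% PEGDA EPCaTs, against 1354 CPM in the 2D coculture. FHL1, a relative of FHL2 chosen for mention after its values were seen, measured 35.4, 57.2 and 55.98 CPM in the 3 EPCaTs, against 172 CPM in 2D. Of 21 SRF cofactors and further targets, 6 were lower in all 3 (MYOCD, CCN1, ANKRD1, EGR1, IER2 and TGFB1I1) and 1 higher (SCIN), the last of each also on a list above, with medians of -0.78, -0.70 and -0.48. EGR1 and IER2 are immediate-early genes of SRF with its ternary complex cofactors. FOS, another such gene, went the other way, called higher in the PF EPCaT (log2 1.53) and above 2D without a call with 2% and 3% PEGDA (0.34 and 0.76). Of the further targets, CCN1 and ANKRD1 are also known as targets of YAP. The monomer-binding cofactors, likewise chosen afterwards, were not called in any gel. MRTFA measured 42.8, 43.3 and 44.2 CPM in the EPCaTs, against 61.6 CPM in 2D, and MRTFB measured 45.0, 39.9 and 40.7 CPM against 23.8 CPM in 2D. VIM, vimentin, was higher in order with PEGDA, at 623, 1135 and 1394 CPM in the PF, 2% and 3% PEGDA EPCaTs, beside 1850 CPM in 2D. Also called on these lists in the 3% PEGDA EPCaT over the PF EPCaT were TMOD1 and EGR2, higher at log2 1.01 and 1.15. VIL1, TNS1 and MYO19 were lower, at -1.44, -1.18 and -1.13, and MYO19, of the other myosins, was lower in order with PEGDA. VIL1, TNS1 and EGR2 had 48 counts or fewer in every library.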

How the data were processed

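Bulk RNA was sequenced in 4 libraries, 1 per group, from TruSeq v2 kits, per the labels. The submitters' processing notes name FastQC, STAR, Partek and hg38, without versions. The authors deposited gene-level estimated counts (18.2 to 19.9% of values are not whole, at a tolerance of 0.01); how reads were assigned to genes and which annotation was used are not given in the sources used here. Expected counts were rounded to whole numbers and totalled 15687912, 15333467, 13760317 and 15641817 for PF, 2% PEGDA, 3% PEGDA and 2D. TMM factors (edgeR 4.0.16, R 4.3.3) were taken over genes at 1 CPM or more in at least 1 library. Ratios used a prior of 0.5 counts, and exact Clopper-Pearson 95% intervals cover counting error only. A call needed a 2-fold ratio and an interval excluding equality; a count of 0 was bounded by 3 counts. Exon lengths and shared 50-base stretches came from GENCODE 29. Alternatives were total-count, upper-quartile and DESeq2 (1.42.0) scaling, other filters, folds and priors. Full values are given for members called in all 3 EPCaTs, called between gels, or most abundant in a family; other members are described beside them; list genes are those most abundant, those called between the 3% PEGDA and PF gels, and others named as such. The result of 1 gene list is not reported here. The members and lists were chosen with earlier results of these data known.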

Additional observations from a re-analysis of the deposited data

How the results depend on the processing

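No called value changed direction under any alternative. Scaling by total counts alone, which put the median of all genes at 0.20, 0.12 and 0.08 over 2D, moved the set's medians to -0.28, -0.29 and -0.36 for the PF, 2% and 3% PEGDA EPCaTs over 2D, to -0.11 and -0.19 for the 2% and 3% PEGDA EPCaTs over the PF EPCaT, and the members lower in the 3% PEGDA EPCaT over the PF EPCaT to 4. A filter of 5 CPM on the mean, which tests fewer genes, removed ACTA2, CNN1 and LMOD1, so ACTA2 and CNN1 left the members lower in all 3 EPCaTs. With that filter 5 members were lower in the PF EPCaT over 2D, and the medians were -0.36 and -0.31 for the PF and 2% PEGDA EPCaTs over 2D. Between gels it gave 0 higher in the 2% PEGDA EPCaT over the PF EPCaT, 1 lower in the 3% PEGDA EPCaT over the PF EPCaT and 0 lower in the 3% PEGDA EPCaT over the 2% PEGDA EPCaT. A 1.5-fold rule gave 15 lower in the PF EPCaT over 2D, 4 higher in each of the 2% and 3% PEGDA EPCaTs over 2D, 2 lower in the 2% PEGDA EPCaT over the PF EPCaT, 1 higher and 4 lower in the 3% PEGDA EPCaT over the PF EPCaT, 3 higher in all 3 EPCaTs, and 2 in order with PEGDA. A prior of 2 counts left 1 lower in the 3% PEGDA EPCaT over the PF EPCaT. Of the counts and medians recomputed, 126 stayed within 1.5 times (counts) or within the counting error of a typical member (medians), and these 21 moved. Calls near 2-fold were lost for TPM2 in the PF EPCaT over 2D (log2 -0.83 with total counts), ACTG2 in the 2% PEGDA EPCaT over 2D (-0.89), ACTN1 in the 3% PEGDA EPCaT over 2D (-0.97), and ACTA2 in the 3% PEGDA EPCaT over the PF EPCaT (-0.95 with a prior of 2 counts). Upper-quartile scaling also ended the calls of TPM2 and ACTG2, and a prior of 2 counts that of ACTG2. Depth limits CNN1, LMOD1 and ACTA2, with 44 counts or fewer in each EPCaT. No paired analysis was possible because each group held 1 library.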
